A study of Mus musculus with 4 samples.

Results

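Genes of the centriole, the centrosome and the basal body were followed in whole testes of mice lacking the transcription factor RFX2. They were taken by symbol: every gene whose symbol is Cep followed by a number, together with Plk4, Sass6, Stil, Cenpj, Cntrob, Poc1a, Poc1b, Poc5, Cetn1 to Cetn4, Ofd1, Pcm1, Pcnt, Nin, Ninl and Sfi1. The files list 38 such symbols, and 37 of them reached 1 FPKM (fragments scaled by gene length and sequencing depth) in 2 or more of the 4 samples, out of 12985 genes that met this filter. All 37 were above 1 FPKM in every sample, so no gene met the filter through a single genotype. The remaining symbol, Nin, was below 1 FPKM in all samples. RNA was sequenced from testes at postnatal day 24, from males, with 2 biological samples of rfx2-/- (mutant) testes and 2 of control testes. The sample labels call the controls wild type and the strain DBA, whereas the methods of the study describe heterozygous controls on a mixed background. The mutant line came from 1 targeted embryonic stem cell clone, in which a neomycin cassette replaced the exons that encode the DNA-binding domain. Each sample is a mixture of germ cells and somatic cells, and a smaller number of cells of a type cannot be told apart from less RNA per cell.

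Centrioles are short cylinders of microtubules that organise the centrosome of dividing cells. In a round spermatid the centriole pair moves to the cell surface, and the distal centriole serves as the basal body from which the sperm flagellum grows. A new centriole is started by the kinase PLK4 with STIL and the cartwheel protein SASS6. Appendages on the older centriole dock it to the membrane, and the pericentriolar material around it nucleates microtubules. RFX factors bind a promoter element called the X-box and are known as activators of ciliary genes. The comparison asks whether the RNA for the parts of the basal body differed when RFX2 was absent.

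The targeted gene was checked first. Rfx2 stood at 36.7 and 39.8 FPKM in the mutants, well under the 123 and 89.4 FPKM of the controls, which gave a log2 fold change of -1.43 (95% interval -1.88 to -0.98, adjusted p = 0.00617 from limma). The adjusted p from limma was above the threshold with no filter (0.0607), with median-ratio scaling (0.073) and without control 1 (0.0628, log2 fold change -1.20). The values are for the gene as a whole, so the loss of the targeted exons themselves was not measured. Fold changes are on the scale of log2(FPKM + 1), mutant minus control, and the test was limma with Benjamini-Hochberg adjustment over the 12985 genes. An adjusted p under 0.05 was reached by 2.83% of all genes tested, with 2.52% lower in the mutants and 0.308% higher. Summed markers of elongating spermatids were 1571 FPKM in mutant 1, far below the 7141 of mutant 2 and the 8383 and 5745 of the controls. Macrophage markers summed to 69.2 FPKM in mutant 1 and 144 in mutant 2 against 155 and 146 in the controls. Summed markers ran from 77.6 to 113 FPKM over the samples for spermatogonia, from 589 to 731 for spermatocytes, from 3177 to 3899 for round spermatids, from 551 to 838 for Sertoli cells and from 139 to 454 for Leydig cells. Values were present for 9 of the 10 Sertoli genes and 7 of the 8 macrophage genes listed, and for every gene of the other lists. In none of the 7 lists was a gene with values at 0 in all samples, and none of their tested genes passed the threshold. The medians of the log2 fold changes were -0.41 for elongating spermatids, -0.18 for round spermatids, 0.095 for spermatocytes, 0.075 for spermatogonia, 0.11 for Sertoli cells, 0.29 for Leydig cells and -0.25 for macrophages. The part of these differences in the values below was not tested.

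**Figure D1:**
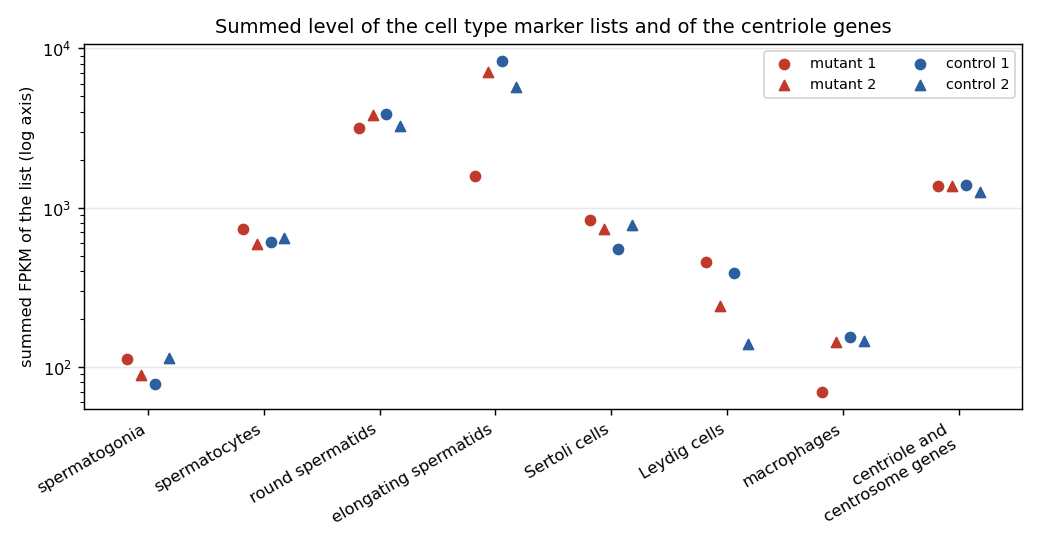
Summed FPKM of each cell type marker list and of the 37 centriole and centrosome genes (y axis, log scale) in mutant 1, mutant 2, control 1 and control 2. Mutant 1 stands apart for elongating spermatid markers at 1571, while the centriole and centrosome genes sum to between 1252 and 1394 in all samples.

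In limma, 0 of the 37 genes were lower and 0 were higher in the mutants at the 0.05 threshold on the adjusted p, against 2.83% of all genes called in either direction. Before adjustment, 2 were lower and 0 were higher at p under 0.05, and these shares of all genes were 6.68% and 2.01%. Without mutant 1 the number lower was 1, and without mutant 2, control 1 or control 2 it was 0. With 2.52% of all genes lower, a count of 0 among 37 is near the background and does not set these genes apart. Their log2 fold changes ran from -0.48 for Cep170 to 0.34 for Cntrob, with a median of -0.013 beside a median of 0.032 over all genes tested. Within a genotype, the 2 samples differed by a median of 0.13 (mutants) and 0.16 (controls) on the log2 scale for the 37 genes, beside 0.21 and 0.22 over all genes tested. The median absolute difference between genotypes was 0.10 for the 37 genes and 0.13 over all genes tested. The 37 genes were the more abundant, with sample medians of 15.3 to 16.3 FPKM beside 8.86 to 9.91 FPKM for all genes tested. The part of level in these spreads and in the intervals below was not tested. A p above the threshold does not show that the genotypes are alike, so the 95% interval of each difference from limma was also taken. It lay between a 2-fold fall and a 2-fold rise for 37 of the 37 genes and for 87% of all genes tested. Without control 1 that number was 32, and without control 2 it was 34. Both mutant samples were below both control samples for 11 genes and above them for 5, where 15.2% and 16.3% of all genes tested had these orders.

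**Figure D2:**
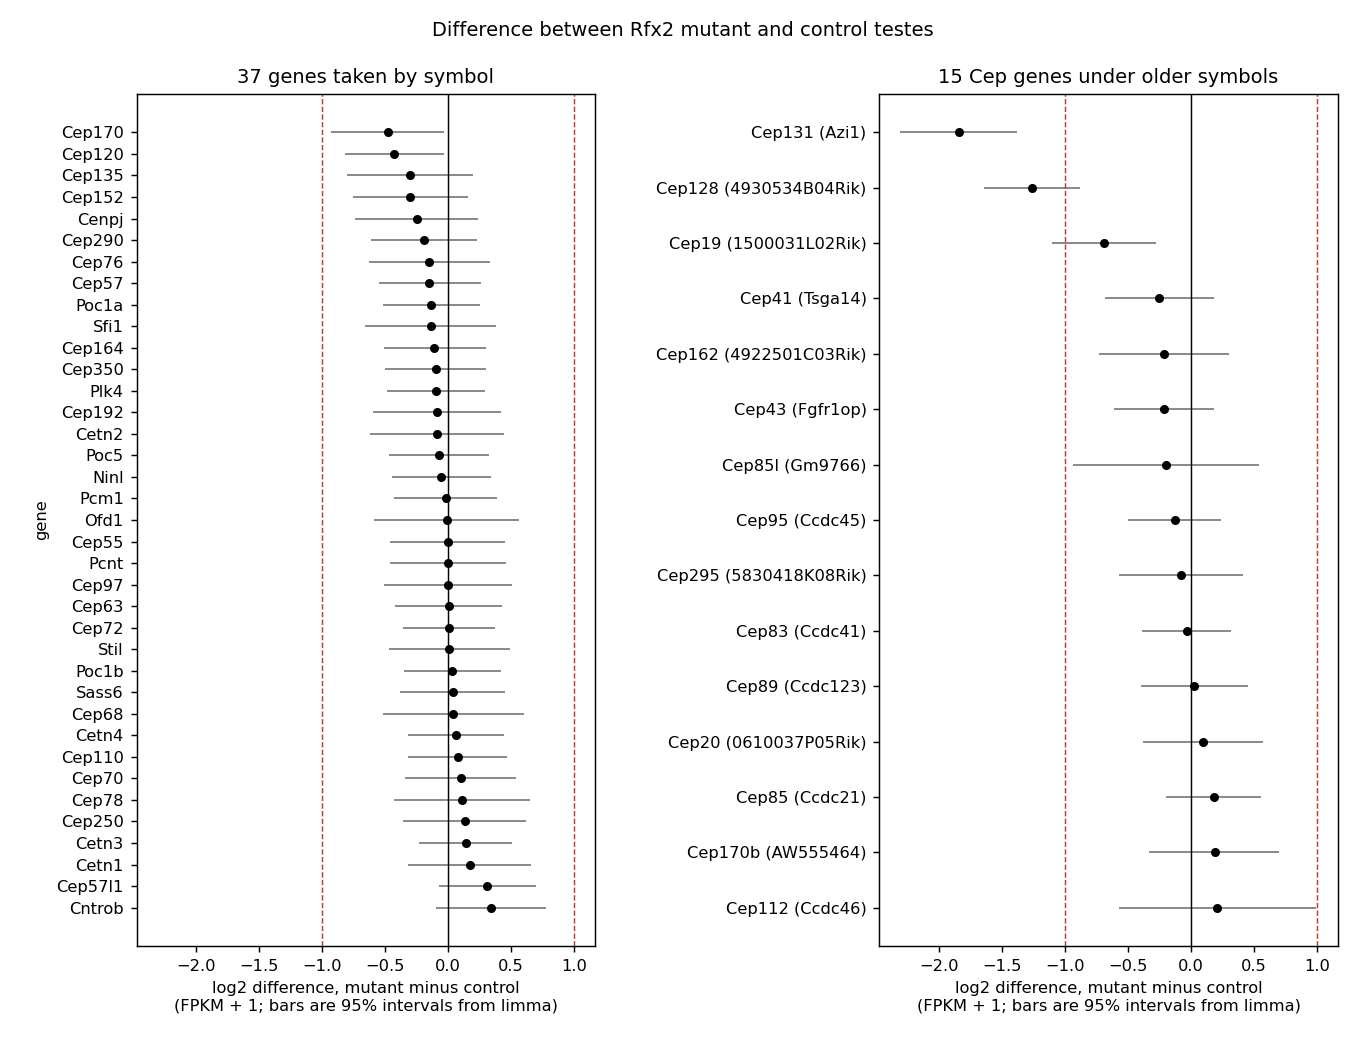
Log2 difference of FPKM + 1 between mutant and control (x axis) with its 95% interval from limma, for the 37 genes taken by symbol (left) and for 15 genes that now carry a Cep symbol but are listed under an older one (right). On the left no interval reaches the dashed lines that mark a 2-fold difference, and on the right Cep131 at -1.84 and Cep128 at -1.26 stand apart.

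The levels of the genes spanned a wide range in the testis. FPKM is scaled by gene length, so it can be compared between genes. The highest mean over the 4 samples, 389 FPKM, was that of Cetn1, and the lowest, 1.94 FPKM, that of Cep152. A mean of at least 100 FPKM was found for 4 genes, from 10 to under 100 for 19 and under 10 for 14. The 4 most abundant genes, Cetn1, Cep63, Cetn4 and Cetn3, held between 57% and 62.8% of the summed FPKM of the 37. This sum was 1359 in mutant 1 and 1362 in mutant 2, between the 1394 of control 1 and the 1252 of control 2. The genotypes overlapped for this sum, which the 4 most abundant genes carry. The other 33 genes summed to 520 and 506 FPKM in the mutants against 531 and 538 FPKM in the controls, so that the mutants were the lower samples there, a difference that was not tested.

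**Figure D3:**
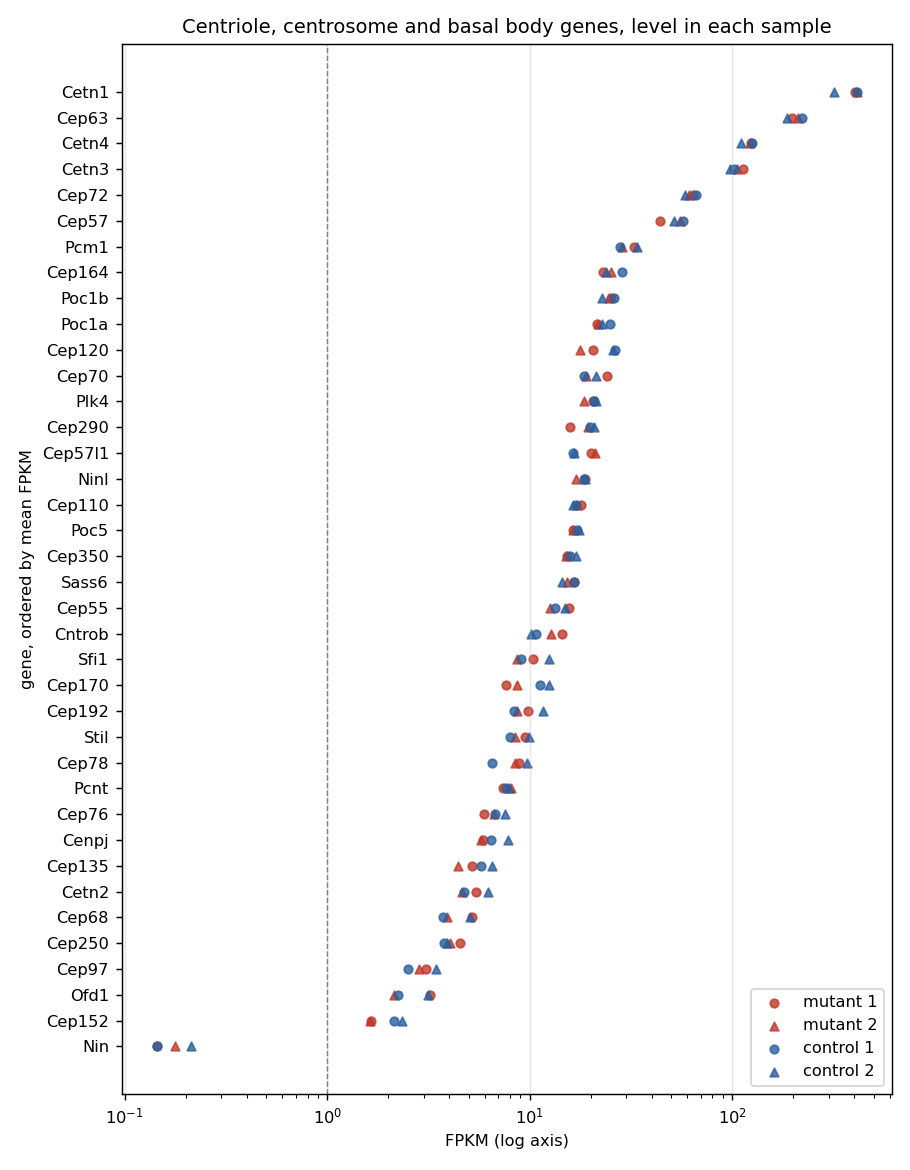
FPKM (x axis, log scale) of each of the 38 genes in the 4 samples, ordered by mean. Cetn1 stands highest, between 319 and 416, Cep152 lowest among the genes tested, and Nin lies left of the dashed line at 1 FPKM. Among the 37 genes tested, both mutant points lie below both control points for 11 and above them for 5, and the rest overlap.

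The core of centriole duplication was covered by 13 genes, of which 8 had negative and 5 positive log2 fold changes, with none past the threshold. Over the 12985 genes tested, 5542 values were negative and 7443 positive. Both mutant samples were below both control samples for 6 of the 13 and above them for 1, beside 15.2% and 16.3% of all genes tested. Plk4, the kinase that starts a new centriole, stood at 20.5 and 18.5 FPKM in the mutants against 20.7 and 21.2 FPKM in the controls. Its log2 fold change was -0.10 (95% interval -0.49 to 0.29, adjusted p = 1 from limma). Sass6, which builds the cartwheel, had 16.6 and 15.3 FPKM in the mutants against 16.6 and 14.5 FPKM in the controls. Stil, the partner of PLK4 in this step, had 9.49 and 8.47 against 7.99 and 9.93 FPKM. For Sass6 and Stil the genotypes overlapped, with log2 fold changes of 0.036 and 0.0076.

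The scaffolds that recruit PLK4 differed widely in level but little between genotypes. Cep192 had 9.77 and 8.7 FPKM in the mutants against 8.41 and 11.6 FPKM in the controls, and these overlapped. Cep152, the least abundant gene tested, had 1.64 and 1.63 FPKM against 2.15 and 2.34 FPKM. Both mutant samples were lower, but the log2 fold change of -0.30 (95% interval -0.76 to 0.16, adjusted p = 1 from limma) did not pass. Cep63, which works with CEP152, was the second most abundant gene at 197 and 211 FPKM in the mutants against 222 and 186 FPKM in the controls. Its log2 fold change was 0.0054 (95% interval -0.42 to 0.43). CEP63 and CEP152 act in 1 complex, and the RNA levels of their genes lay near opposite ends of the range.

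Genes for the growth of the centriole wall held the second lowest value. Cenpj, also called CPAP, which sets the length of centriolar microtubules, had 5.89 and 5.73 FPKM in the mutants against 6.42 and 7.82 FPKM in the controls. Cep135, a link between cartwheel and wall, had 5.17 and 4.43 against 5.74 and 6.54 FPKM. Cep120, which acts with CPAP in elongation, had 20.6 and 17.8 FPKM in the mutants against 26.5 and 25.7 FPKM in the controls. For all of these the mutant samples lay below the control samples, and only Cep120 had an unadjusted p under 0.05, with a log2 fold change of -0.43 (standard error 0.17, 95% interval -0.82 to -0.034, adjusted p = 0.476 from limma). Cntrob, for the daughter-centriole protein centrobin, had the most positive value, at 14.4 and 12.7 FPKM in the mutants against 10.8 and 10.1 FPKM in the controls. Its log2 fold change was 0.34 (95% interval -0.094 to 0.78, adjusted p = 0.86 from limma). The remaining genes counted under centriole duplication, Cep57, Cep76 and Cep97, had log2 fold changes of -0.15, -0.15 and 3.8e-05.

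Centrins are small calcium-binding proteins of the centriole lumen, and Cetn1 is the form known for its expression in male germ cells. Cetn1 had 404 and 416 FPKM in the mutants against 414 and 319 FPKM in the controls, a log2 fold change of 0.17 (95% interval -0.32 to 0.66). Cetn4 followed with 124 and 123 against 125 and 111 FPKM. Cetn3 had 113 and 106 against 102 and 97.4 FPKM, so that both mutant samples were the higher ones, with a log2 fold change of 0.14 (95% interval -0.23 to 0.51). Cetn2, the ubiquitous form, was far lower, at 5.46 and 4.66 FPKM in the mutants against 4.73 and 6.21 FPKM in the controls. The order Cetn1, Cetn4, Cetn3, Cetn2 held in every sample, although the lowest value of Cetn4, 111 FPKM, was under the highest of Cetn3. The coding sequences of Cetn1 and Cetn2 in the NCBIM37 annotation were 78.7% identical with a longest shared run of 29 bases, and the other pairs of centrins were 60.2% to 70.1% identical with shared runs of at most 20 bases. How the authors' tools assigned reads that match more than 1 centrin was not tested.

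The other genes of the centriole wall and lumen also showed no call. Poc1a had 21.4 and 21.8 FPKM in the mutants against 25 and 22.7 FPKM in the controls, and its paralogue Poc1b had 25.1 and 24.7 against 26 and 22.8 FPKM. Poc5, a centrin-binding protein of the distal lumen, had 16.4 and 16.4 against 17.2 and 17.5 FPKM. Sfi1, which also binds centrins, had 10.4 and 8.68 against 9.03 and 12.4 FPKM. The bounds of the authors' confidence intervals were summed over entries sharing a symbol, which is not the interval of a sum. For Sfi1 they reached 86.5% of its FPKM to either side in its least precise sample. This was the least precise value among the 37, beside a median of 5% over all of their values. The log2 fold changes of these 4 genes lay between -0.14 and 0.032.

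Appendage genes contained the lowest value of the module. Cep170, for a protein of the subdistal appendages, had 7.67 and 8.65 FPKM in the mutants against 11.2 and 12.4 FPKM in the controls, without overlap. The log2 fold change of Cep170 was -0.48 (standard error 0.20, 95% interval -0.93 to -0.03, adjusted p = 0.5 from limma), and this did not pass the threshold. In NCBIM37 (mm9) the gene spans chr1:178663784-178744198 on the minus strand. Cep164, for the distal appendage protein that docks the basal body to the membrane, had 23.1 and 25.1 against 28.6 and 23.8 FPKM, and Ninl had 18.7 and 17 against 18.5 and 18.7 FPKM. Cep110, which encodes centriolin, had a log2 fold change of 0.074. Nin, for the subdistal appendage protein ninein, stood at 0.144 and 0.177 FPKM in the mutants against 0.145 and 0.212 FPKM in the controls and was not tested.

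Among genes of the pericentriolar material and the centriolar satellites, Pcnt, which encodes the scaffold pericentrin, had 7.42 and 8.06 FPKM in the mutants against 7.62 and 7.87 FPKM in the controls. Pcm1, for the protein that assembles the satellites, had 32.6 and 28.5 against 28 and 34.1 FPKM. Their log2 fold changes were -0.0019 and -0.018. Ofd1, a satellite and distal centriole gene on the X chromosome, had 3.23 and 2.13 against 2.25 and 3.16 FPKM, and Cep72, which acts with the satellites, had 63.9 and 61.4 against 66.3 and 58.7 FPKM. Cep290, which links the basal body to the transition zone, had 15.9 and 19.4 against 19.8 and 20.7 FPKM, a log2 fold change of -0.19 (95% interval -0.61 to 0.23, adjusted p = 1 from limma). Only for Cep290 in this group did both mutant samples lie below both control samples.

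The linker and scaffold genes Cep250, Cep68 and Cep350 had log2 fold changes of 0.13, 0.037 and -0.10. Cep250, for the C-NAP1 protein that holds centrioles together, had 4.54 and 4.06 FPKM in the mutants against 3.78 and 3.89 FPKM in the controls. The 4 other genes, Cep55, Cep57l1, Cep70 and Cep78, lay between -0.0051 and 0.31. Cep55, which directs the last cut of dividing cells and whose action is blocked at the bridges between germ cells, had 15.7 and 12.6 against 13.3 and 15 FPKM. Cep57l1 was above both control samples in both mutant samples, at 20.2 and 21 against 16.3 and 16.5 FPKM, with a log2 fold change of 0.31 (95% interval -0.076 to 0.70, adjusted p = 0.83 from limma).

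The symbols in the files date from the mm9 annotation, and several genes that now carry a Cep symbol are listed there under another name. RefSeq synonyms (GRCm38.p6) matched 15 such protein-coding genes to a single entry each, all of them tested. These genes were chosen after their values had been seen, so their count is a description. At the same threshold 2 of the 15 genes were lower and 0 were higher in the mutants, against 2.52% and 0.308% of all genes. Their median log2 fold change was -0.13, beside 0.032 over all genes tested. Both mutant samples were below both control samples for 7 of the 15 and above them for 1, beside 15.2% and 16.3% of all genes.

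The largest fall was that of Azi1, now named Cep131, which encodes a centriolar satellite protein known to be needed for the mouse sperm flagellum. It stood at 4.81 and 4.5 FPKM in the mutants, far below the 21.2 and 17.5 FPKM of the controls. The groups did not overlap. The part of cell composition in this difference was not tested. The log2 fold change was -1.84 (standard error 0.20, 95% interval -2.31 to -1.38, adjusted p = 0.00215 from limma), and over the alternatives run its adjusted p from limma lay between 6.51e-10 and 0.0464. In NCBIM37 (mm9) Azi1 spans chr11:119925744-119948141 on the minus strand.

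The other call was 4930534B04Rik, now named Cep128, for a protein of the subdistal appendages. It had 18.9 and 22.1 FPKM in the mutants against 50.5 and 50.2 FPKM in the controls, without overlap. This was a log2 fold change of -1.26 (standard error 0.16, 95% interval -1.64 to -0.88, adjusted p = 0.00511 from limma). Without control 1 the adjusted p from limma was 0.0838, and without control 2 it was 0.0693, with log2 fold changes of -1.26 and -1.27. In NCBIM37 (mm9) the gene spans chr12:92236932-92622849 on the minus strand.

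The next lowest gene was 1500031L02Rik, or Cep19, whose protein sits at the appendages and is known to be needed for male fertility in mice. It had 18.3 and 16.5 FPKM in the mutants against 31.2 and 26.3 FPKM in the controls. The difference on the log2 scale was -0.69 (standard error 0.18, 95% interval -1.10 to -0.28, adjusted p = 0.12 from limma). The groups did not overlap, but the test was not passed. The other 12 genes had log2 fold changes from -0.25 for Tsga14 (Cep41) to 0.21 for Ccdc46 (Cep112). These included the distal appendage genes Ccdc41 (Cep83), at 50.7 and 51.2 FPKM in the mutants against 52.9 and 51.5 FPKM in the controls, and Ccdc123 (Cep89), at 33 and 40 against 39.5 and 32.2 FPKM.

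**Figure D4:**
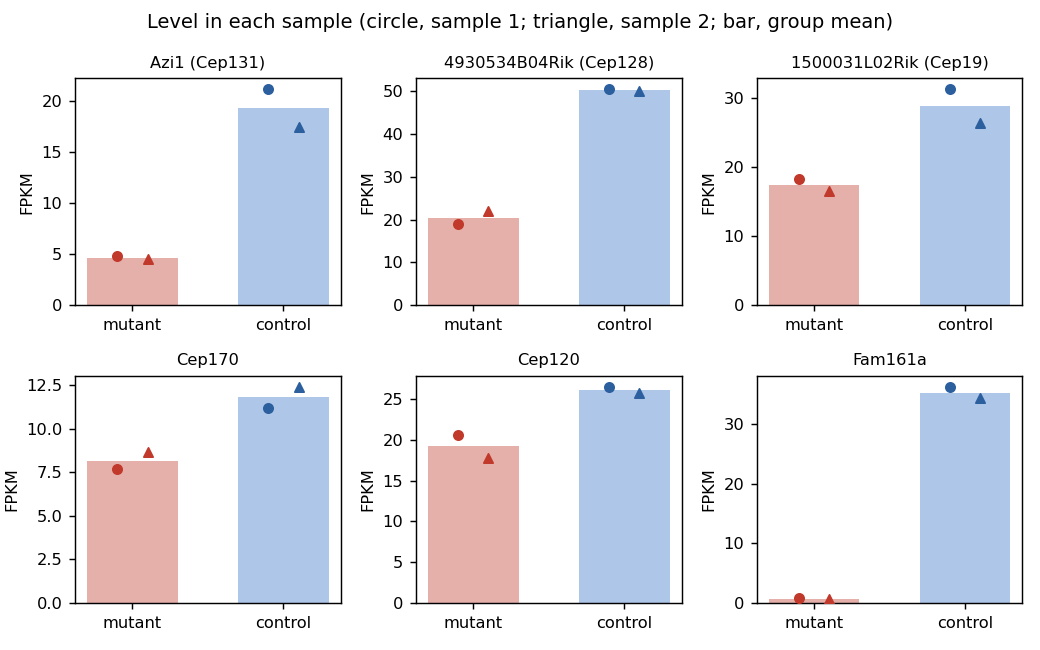
FPKM (y axis) in each sample for Azi1, 4930534B04Rik, 1500031L02Rik, Cep170, Cep120 and Fam161a, with bars at the group means. In all 6 panels both mutant samples lie below both control samples, with adjusted p under 0.05 from limma for Azi1, 4930534B04Rik and Fam161a only.

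A list of 63 further tested genes of the centriole, centrosome and basal body, which the symbol rule does not take, held 2 lower and 0 higher genes at the same threshold, against 2.52% and 0.308% of all genes. Without mutant 2 the number lower was 4. They include 4 of the genes under older symbols, with Azi1 among them. The median of their log2 fold changes was -0.015. Before adjustment, 6 were lower and 0 higher at p under 0.05 in limma, and these shares of all genes were 6.68% and 2.01%. Both mutant samples were below both control samples for 15 and above them for 10, beside 15.2% and 16.3% of all genes. The call other than Azi1 was Fam161a, for a protein of centrioles and of the ciliary base. It stood at 0.765 and 0.717 FPKM in the mutants against 36.3 and 34.4 FPKM in the controls. In limma the log2 fold change came to -4.38 (standard error 0.20, 95% interval -4.85 to -3.92) with an adjusted p = 2.72e-05. The study had picked Fam161a from the genes that differed in these samples, so its direction here is not independent evidence. By real-time PCR the study also measured cilia-related genes, Fam161a among them, and reported most of them lower in mutants. The exceptions that the study named did not include Fam161a.

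Promoter sequence was examined for the members, for the further lists and for the genes that fell. RefSeq promoter windows of GRCm38.p6, from 250 bases before to 50 bases after a start, were at hand for 29 of the 37 genes, with Cep110 taken under its current symbol Cntrl. No window was used for Cep120, Cep192, Cep350, Cep76, Cetn1, Cntrob, Pcm1 and Sfi1. The 12 letters of the X-box with a gap of 0 to 3 bases between its arms were searched on both strands. An X-box without mismatch was found for 0 of the 29 genes and for 1.75% of the 27025 symbols in the table. All these symbols were taken without a filter on level in the testis, and a symbol counted once if any of its windows matched. With 1 mismatch, 7 of the 29 genes (24.1%) and 12.7% of all symbols had a match. A match is a run of letters and not a measured binding site, and a window without one says nothing about RFX2 elsewhere.

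Matches with 1 mismatch in 4 of these 7 genes, those of the core list, are shown in capitals with 7 bases on either side, on the strand of the gene, to set them beside the levels given above. They come from chr5:76588661-76588674 (Cep135), chr9:45828662-45828674 (Cep164), chr10:100487589-100487601 (Cep290) and chrX:72918339-72918352 (Cetn2) of GRCm38.p6. In Cep164 the X-box reads on the opposite strand, and 1 of its 2 matches is shown.
Cep135: gggcgccGTAGCCCCGGCATCggccggc
Cep164: cctctcaGTTGCTAGGCCAGtgccttt
Cep290: gagtggtGTCGCCTAGCAGCcggcgcc
Cetn2: gtacgccGTTGCCTTAACAACcggtggc
None of these genes passed the test, and the genotypes overlapped for Cep164 and Cetn2. The log2 fold changes of the genes shown were -0.30 for Cep135, -0.11 for Cep164, -0.19 for Cep290 and -0.089 for Cetn2. The members with such a match that are not shown, Cep70, Cep110 and Cep97, had 0.099, 0.074 and 3.8e-05.

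X-boxes without mismatch lay in the windows of 2 of the 15 genes under older symbols (13.3%) and 3 of the 47 further genes that had a window (6.38%). The share over all symbols was 1.75%. With 1 mismatch allowed the shares were 40% and 27.7%, beside 12.7% of all symbols. The lists hold only genes that met the FPKM filter, while all symbols were taken without it. These differences in share, and the part of the filter in them, were not tested. The X-boxes without mismatch are shown in the same way, and none of the genes that carry them passed the test. Their positions are chr6:30693866-30693880 (Tsga14, Cep41, opposite strand), chr11:108425026-108425039 and chr11:108425182-108425195 (Ccdc46, Cep112), chr3:146404591-146404603 (Ssx2ip), chr16:44347395-44347408 (Spice1) and chr8:12672216-12672228 (Tubgcp3) of GRCm38.p6.
Tsga14: gtcccgcGTTGCCCTTGGCAACcattgag
Ccdc46, upstream: ctagacaGTTACCATAGCAACggagctg
Ccdc46, downstream: ccggagcGTCGCCATGGCAACagagttg
Ssx2ip: gttgttcGTCGCCTGGCAACcggcgga
Spice1: agctctgGTAACCCAGGCAACggcccgg
Tubgcp3: tgcgagcGTCGCCCAGCAACgactttt
Tsga14 had 11.1 and 12.7 FPKM in the mutants against 14.9 and 13.7 FPKM in the controls, a log2 fold change of -0.25 (95% interval -0.68 to 0.18, adjusted p = 1 from limma). Ccdc46, with a pair of X-boxes, had 47.7 and 107 against 67.3 and 56.5 FPKM, so that the mutant samples lay on either side of the controls. The log2 fold changes of Ssx2ip, Spice1 and Tubgcp3 were -0.18, -0.0032 and -0.0032.

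The windows of the called genes Azi1 and 4930534B04Rik and both windows of Fam161a held no X-box, either without mismatch or with 1 mismatch. The study scanned wider promoter regions by another method and reported predicted RFX2 targets, some of which it examined by ChIP-PCR. Those predictions were not compared here, and sites outside these short windows were not searched. For Azi1 and 4930534B04Rik the 250 bases before the RefSeq start are shown on the strand of the gene, as the promoters of the Cep genes that fell. They lie at chr11:120086828-120087077 (Azi1, Cep131) and chr12:91384410-91384659 (4930534B04Rik, Cep128) of GRCm38.p6, both on the minus strand.
Azi1: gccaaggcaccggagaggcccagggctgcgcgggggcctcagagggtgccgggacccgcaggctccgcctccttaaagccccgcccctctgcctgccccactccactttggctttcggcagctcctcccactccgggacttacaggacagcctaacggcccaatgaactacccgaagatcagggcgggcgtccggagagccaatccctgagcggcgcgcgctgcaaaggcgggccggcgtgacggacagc
4930534B04Rik: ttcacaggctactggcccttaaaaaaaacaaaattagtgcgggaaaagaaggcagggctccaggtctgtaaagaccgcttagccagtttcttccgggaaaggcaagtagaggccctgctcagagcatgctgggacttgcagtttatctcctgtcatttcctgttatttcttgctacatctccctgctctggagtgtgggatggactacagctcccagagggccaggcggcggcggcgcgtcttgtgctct
The share of G and C was 70% in the first and 53.2% in the second.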

How the data were processed

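Whole testis RNA of postnatal day 24 was sequenced by the authors on an Illumina instrument, aligned to mm9 with TopHat 2.0.6 and quantified with Cufflinks. The deposited values are FPKM per gene and sample, with the bounds of a confidence interval, scaled by the authors to gene length and sequencing depth, and the files show no further scaling between samples. The files give no read counts. The authors' interval, with its bounds summed over entries sharing a symbol, reached between 1.58% and 86.5% of FPKM to either side for the 37 genes. The median was 5%. The strand setting of the library is not given in the sources used here.

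Entries sharing a symbol were summed, which gave 22311 genes. Genes that reached 1 FPKM in 2 or more of the 4 samples were tested on log2(FPKM + 1), mutant against control, in limma 3.58.1 (R 4.3.3). The eBayes step used a trend, tests were two-sided, and calls were made at 0.05 after Benjamini-Hochberg adjustment. The pseudocount understates changes of low genes. P-values rest on 2 biological samples per genotype. The Cuffdiff test of the study pooled the reads of a genotype and cannot be made from FPKM. The functions were tested on simulated data. Genes were named if they passed the threshold, had an unadjusted p under 0.05 without overlap, were among the 5 most abundant or belonged to a core list; further members and genes with X-boxes were named after their values were seen. The members and lists, including the 7 marker lists (spermatogonia, spermatocytes, round and elongating spermatids, Sertoli cells, Leydig cells and macrophages), were chosen with earlier results of these data known. Positions come from the NCBIM37 annotation and promoters from RefSeq. Other steps ran in pandas 2.3.3 and numpy 2.4.6 under python 3.11.15. The alternatives are given at the end. The staining, PCR and ChIP-PCR experiments of the study were not analysed here.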

Additional observations from a re-analysis of the deposited data

How the results depend on the processing

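With 14 alternatives (pseudocount 0.1, no filter, a filter at FPKM 5, quantile normalization, median-ratio scaling, robust eBayes, no trend in eBayes, the highest entry per symbol, the replicate block, the crossed replicate block and each replicate left out in turn), 0 of the 37 genes were called lower or higher in any. Their lowest adjusted p in any alternative was 0.295 from limma, for Cep170 with the crossed replicate block. The median log2 fold change of the 37 ran from -0.088 to 0.029. Of 27 named members, 6 changed sign in an alternative with all samples, and these had absolute log2 fold changes of at most 0.018. With a replicate left out, 15 changed sign, with values of at most 0.17. With 1 mismatch, 7 members had an X-box match in place of 0, since the looser motif matches more sequence. With current RefSeq symbols, an alternative chosen after seeing the data, 2 of 52 genes were lower. Of the further centrosome genes, between 2 and 4 were lower when a replicate was left out, with 4 without mutant 2. In these fits the lone sample of a group is assumed to vary like the other group. Between 32 and 36 of the 37 intervals stayed within 2-fold when a replicate was left out, and 35 did with pseudocount 0.1 and with the replicate block.

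Same-numbered samples had a correlation of -0.15 in their deviations from the group means across genes. With 2 samples per genotype this value cannot decide whether the numbers pair the samples, since all genes share the same 4 samples. With the replicate block 0 members were lower and 0 were higher, and the lowest adjusted p from limma was 0.838. The crossed replicate block, chosen after seeing the data, also called 0 and 0. Over all genes the replicate block called 525 lower and 70 higher and the crossed replicate block 266 and 28, against 327 and 40 without a block. The lower and higher calls over all genes were 199 and 17 with no filter, 202 and 17 with a filter at FPKM 5, 216 and 16 with median-ratio scaling, 948 and 102 without mutant 2, 433 and 162 without mutant 1, 167 and 17 without control 1 and 213 and 13 without control 2. The 95% intervals of the 37 genes reached 0.37 to 0.58 to either side on the log2 scale.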

Other observations

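Over the 111 tested genes of the members, the genes under older symbols and the further list, the mutant samples lay over 2-fold apart on the FPKM + 1 scale for 3 genes and the control samples for 0. Spatc1, for a centrosomal protein of sperm, had 6.67 FPKM in mutant 1 and 28.6 in mutant 2, on either side of the 21.1 and 15.7 of the controls. Ccdc46 (Cep112) had 47.7 and 107 FPKM in the mutants against 67.3 and 56.5 in the controls, and Gm9766 (Cep85l) had 12.6 and 27.7 against 21.9 and 21.6 FPKM. Mutant 1 was the lower mutant sample for all 3, as it was for the elongating spermatid markers, and the part of these markers in the differences was not tested. The limit of 2-fold was set after the values had been seen.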
